A study of Xenopus laevis with 8 samples.

Results

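The Wnt pathway genes of the array were examined in head and tail fragments of Xenopus laevis (African clawed frog) embryos. Members were all probe sets whose annotated symbol named a Wnt ligand, Frizzled or other Wnt receptor, secreted antagonist, intracellular transducer or planar polarity protein, with every L and S copy kept. A probe set is the group of short oligonucleotides that an Affymetrix array uses to measure 1 transcript, and L and S are the gene copies on the long and short chromosomes of this allotetraploid frog. The rule found 78 probe sets for 52 genes among 15491 probe sets without controls, and 1 of them was listed under both copies of lef1. Roles gave 19 probe sets for ligands and their processing, 20 for receptors, 13 for antagonists, 16 for intracellular genes and 10 for polarity genes.

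Untreated embryos at stage 18, the late neurula in which the neural folds close, had been cut across, and total RNA of the head piece and the tail piece was measured on separate arrays. There were 4 head and 4 tail arrays, and no genotype other than the species was given. Replicates 1 to 3 of a tissue were each from 1 embryo, and replicate 4 was pooled from several. Clutches, pool size and the level of the cut are not stated in the labels, so p-values measure only how these samples spread, which may be partly technical. Each fragment holds many cell types, so fewer cells of a type and less RNA per cell cannot be told apart.

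Wnt proteins are secreted signals that carry a lipid, which porcn attaches and which wls ferries to the cell surface. They bind Frizzled receptors, with lrp5 or lrp6 as co-receptor for the branch that stabilises beta-catenin and lets it act with Tcf and Lef factors on target genes. A second branch, through Dishevelled, Vangl, Prickle, ror2 and ptk7, sets cell polarity and drives the narrowing and lengthening of the body axis. In vertebrate neurulae posterior Wnt signals pattern the neural plate and the unsegmented mesoderm, and anterior tissue makes secreted antagonists that keep the head territory low in Wnt.

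Array medians ran from 327 to 390 signal units. Precision is limited by how many arrays there were. The labelled tissues were checked with marker genes chosen with earlier results of these arrays known. Of 8 head markers 7 were tested and 6 were higher in heads. The log2 of the summed signal of all 8 was 15.57 to 16.05 in heads against 12.52 to 13.17 in tails. This sum mostly follows the brightest of them, ag1.L, which read 14.94 to 15.58 in heads and 11.85 to 12.71 in tails. All 6 tail markers were higher in tails, with sums of 9.37 to 9.80 in heads and 12.42 to 13.12 in tails. The summed signal of 4 neural markers (sox2, sox11, ncam1 and tubb2b) was also higher in heads, 13.42 to 14.35 against 11.93 to 12.99. All 4 were tested, and 2 of them, sox2 and sox11, passed as higher in heads. The sum of 3 epidermal markers was 16.01 to 16.38 in heads and 16.32 to 16.85 in tails. That of 8 muscle markers was 14.02 to 14.75 and 14.16 to 15.32, and that of 3 notochord markers 10.80 to 11.80 and 10.28 to 11.36. In these lists only the epidermal has1.S and the muscle gene nexn.S passed, both higher in tails (limma adjusted p = 0.0131 and 0.0116). Tail replicate 1 had the highest muscle (15.32), epidermal (16.85) and head marker (13.17) sums of the tails. Its head sum followed ag1.L (12.71, other tails 11.85 to 12.14). By each gene's brightest probe set, tail replicate 1 was also the highest tail in agr2.S, six6.S and nkx2-1.L. It was the lowest tail in otx1.L (7.49, other tails 8.74 to 9.51), pax6.L and six3.L, and neither in otx2.L. Its neural (11.93) and tail marker (12.42) sums were the lowest of the tails, and its array median (327) was the lowest of all. The tested Wnt members lay there at a median of -0.53 log2 units from the mean of the tails. The same median over all tested probe sets was not taken.

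Few of the Wnt pathway genes differed between the fragments by the test used. The ligand gene wnt8a.L and the polarity gene prickle1.L were higher in tails. The antagonist gene sfrp2.S and 1 probe set of the receptor gene fzd8.S were higher in heads. The other, brighter fzd8.S probe set did not pass (difference -0.07). Heads and tails were compared with limma on log2 signals over all 9295 probe sets with a mean log2 signal of at least 7.86, and p-values were adjusted over all of them (Benjamini-Hochberg, threshold 0.05). Of the 78 members 31 were bright enough to be tested, for 23 genes, and 47 lay under this filter (60.3%, against 40% of all probe sets). Of the 31, 4 passed (12.9%), against a background of 4.62% of all tested probe sets. In each direction there were 2 of 31 (6.45%), against 2.00% for higher in head and 2.61% for higher in tail. The median difference of the 31 members, head minus tail, was -0.22 log2 units, against 0.06 over all tested probe sets, and 20 of 31 had a lower mean in heads, against 44% of all probe sets. The median size of the difference was 0.62 log2 units for members and 0.28 for all. At an unadjusted p of 0.05, 15 members passed (48.4%, background 17.5%), 6 higher in heads and 9 higher in tails. By role these were 4 of 5 probe sets of ligands (80%), 5 of 9 of receptors (55.6%) and 3 of 3 of antagonists (100%). The rest were 1 of 7 of intracellular genes (14.3%) and 2 of 7 of polarity genes (28.6%). Only 1 tested member, the fzd8.S probe set that passed, had the mean of 1 tissue under the filter level.

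**Figure D1:**
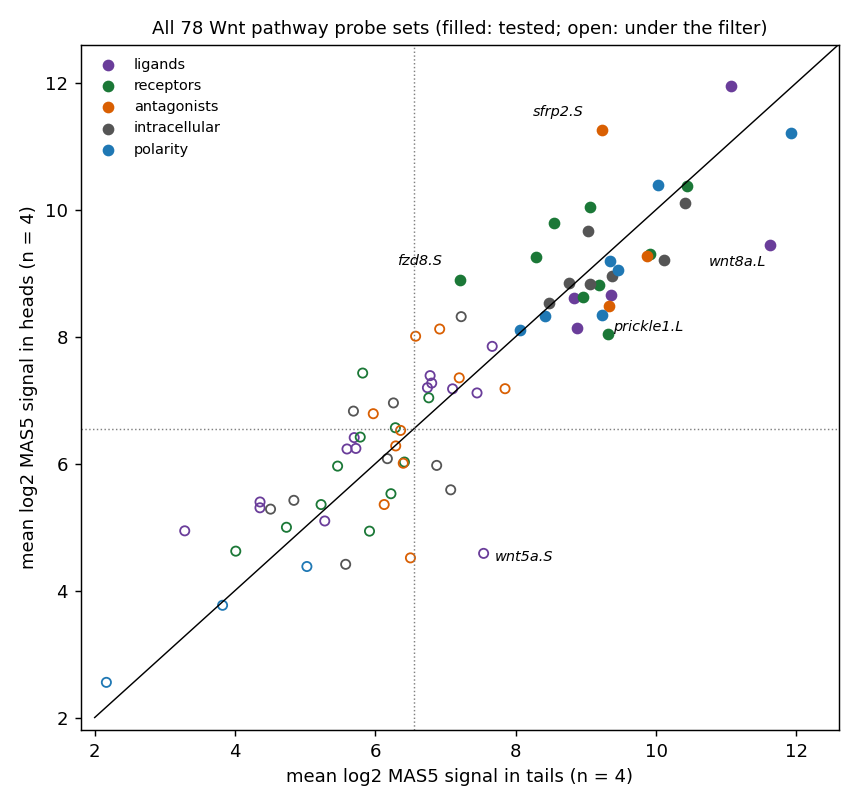
Mean log2 MAS5 signal of all 78 Wnt pathway probe sets in tails (horizontal axis) and heads (vertical axis), n = 4 arrays each, coloured by role. Filled points were tested, open points lay under the filter, the diagonal marks equal means and the dotted lines mark the 20th percentile of all values (6.54). The points of sfrp2.S and of the fzd8.S probe set that passed lie above the diagonal, and those of wnt8a.L, prickle1.L and wnt5a.S below it. The other fzd8.S point (10.37 in heads, 10.44 in tails) lies just below the diagonal.

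Among the ligands the posterior signal stood out. The gene wnt8a.L encodes a Wnt that in Xenopus acts in ventrolateral and posterior mesoderm and posteriorises the neural plate. Its log2 signals were 10.85, 8.07, 9.27 and 9.60 in head replicates 1 to 4 and 11.40, 11.49, 11.64 and 11.98 in tail replicates 1 to 4. Every tail was above every head, and the heads were spread widely, with head replicate 1 nearest to the tails. The means were 9.45 ± 1.15 in the heads and 11.63 ± 0.25 in the tails (SD, n = 4 each), a 4.52-fold difference (log2 difference -2.18, SE 0.45; limma adjusted p = 0.0185). Head replicate 1 was the lowest head in the summed tail markers (9.37, other heads 9.60 to 9.80) and the highest head in 0 of these 6 genes. It was the highest head in 4 of 9 probe sets of known Wnt targets that passed as higher in tails, described at the end. Among these 4 were mespa.S (9.03, other heads 6.04 to 7.78) and ventx2.1.L (10.20, other heads 8.93 to 9.94). It was not the highest in ventx2.1.S (10.24, other heads 9.98 to 10.49) and was the lowest in tbx6.L (6.94, other heads 7.16 to 7.98). Without a filter it was the highest head in 8 of 15 target probe sets higher in tails. Neither share was set against all probe sets higher in tails. Head replicate 1 was also the highest head for the epidermal marker has1.S (13.61, other heads 12.49 to 12.72), which itself passed as higher in tails. The other epidermal markers, which did not pass, were mixed. Head replicate 1 was the highest head in krt12.4.L (14.89, other heads 14.14 to 14.56). In itln1.L it hardly differed from the other heads (15.38, other heads 15.34 to 15.37), and in krt12.4.S it lay below head replicate 3. The part of other posterior or epidermal tissue in the wnt8a.L signal of this head was not tested. Some subsets ended the call. With head replicate 3 left out the limma adjusted p was 0.0609, with tail replicate 2 left out it was 0.0519 and with tail replicate 3 left out 0.0602. In the 6 arrays of single embryos it was 0.0827, and the log2 differences of these 4 subsets ran from -2.22 to -2.11.

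The other tested ligands did not pass. The gene wnt3a.S, a ligand of the dorsal neural tube and tailbud, had log2 signals of 8.81, 8.58, 8.91 and 8.29 in heads and 9.64, 9.34, 9.55 and 8.88 in tails. The 3 single tails lay above all heads, and only the tail pool fell within the head range (difference -0.70, SE 0.25; limma adjusted p = 0.155). The gene wnt11b.L, whose product in Xenopus drives the cell movements of axis extension, had means of 8.14 ± 0.68 in the heads and 8.88 ± 0.28 in the tails (SD, n = 4 each; difference -0.74, limma adjusted p = 0.277). The Wnt carrier wls had both copies measured. The S copy had log2 signals of 11.80, 12.46, 11.68 and 11.84 in heads and 11.95, 10.53, 10.64 and 11.15 in tails. In that copy 3 tails lay below all heads and tail replicate 1 lay among them (difference 0.88, SE 0.31; limma adjusted p = 0.162). Without tail replicate 1 the difference was 1.17 (limma adjusted p = 0.0205). The L copy had a difference of -0.21 (SE 0.29, limma adjusted p = 0.775).

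Most ligands were dim. The filter removed 14 of the 19 probe sets of this role, among them wnt1.L, wnt2b.L, wnt4.L, wnt5b.S, wnt7b.L, wnt8b.S and the lipid-attaching enzyme porcn.L. Of all 47 members under the filter, 1 passed when every probe set was tested without a filter. It was wnt5a.S, a ligand of the polarity branch, with log2 signals of 4.63, 3.87, 4.93 and 4.91 in heads and 6.46, 8.11, 7.63 and 7.97 in tails. All heads and tail replicate 1 were below a log2 signal of 6.54, which is the 20th percentile over the whole table, and the other 3 tails lay above it (limma adjusted p without a filter = 0.00560). With values raised to that percentile the tails were at least 2.03-fold higher, and the adjusted p was then 0.217. A second wnt5a probe set, annotated wnt5a-a, had means of 7.11 ± 0.77 in the heads and 7.45 ± 0.39 in the tails (SD, n = 4 each), and its arrays overlapped between the tissues. Without a filter 4 of 78 members passed (5.13%), against a background of 2.93%: wnt5a.S, wnt8a.L, fzd8.S and sfrp2.S. For wnt1.L and wnt8b.S, ligands known from the midbrain and forebrain, both tissue means were under the 20th percentile, so no fold is given.

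**Figure D2:**
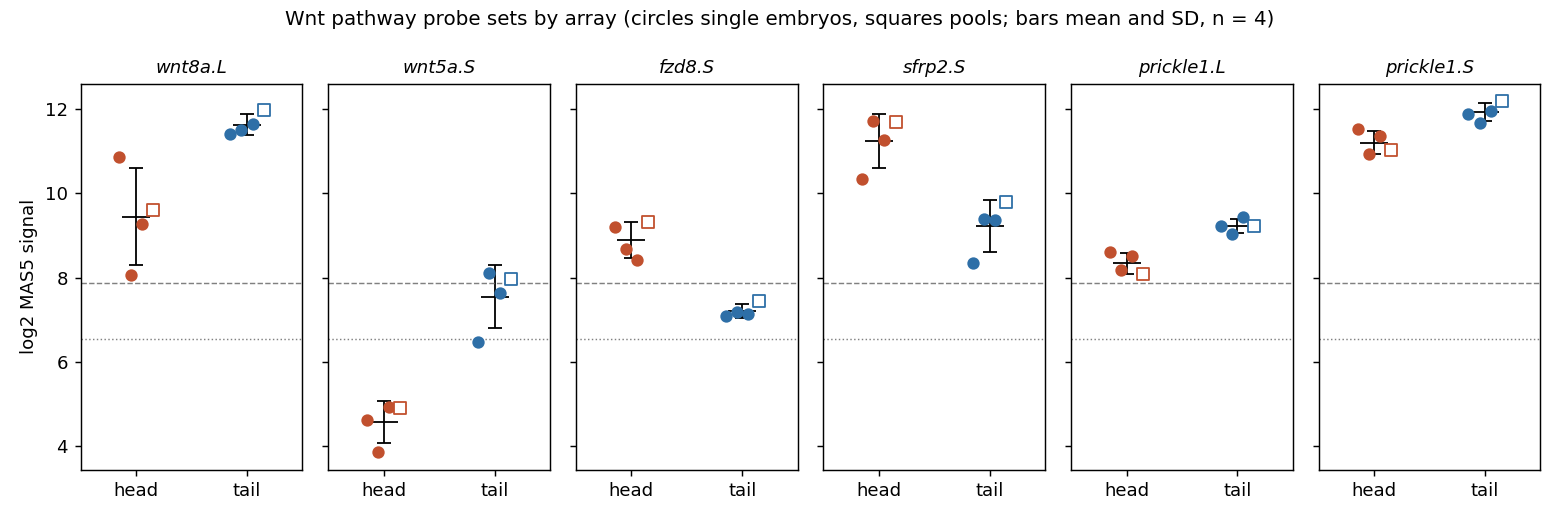
Log2 MAS5 signal of 6 Wnt pathway probe sets in each array; circles are single embryos, open squares pools, bars the mean and SD (n = 4). The dashed line is the filter level (7.86) and the dotted line the 20th percentile (6.54). The 6 are the 4 that passed, prickle1.S and wnt5a.S, picked with their values known. That heads and tails do not overlap in any of them is therefore no result about the members. Over all 31 tested members 5 did not overlap (16.1%, background 11.7%). Other members under the filter that did not overlap are not drawn. For fzd8.S the probe set that passed is drawn. The heads of wnt8a.L spread from 8.07 to 10.85.

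Among the receptors, fzd8.S was higher in heads by 1 of its probe sets. Frizzled-8 is a receptor that in Xenopus embryos marks the anterior neural plate. The first of these probe sets had log2 signals of 9.20, 8.67, 8.41 and 9.31 in heads and 7.09, 7.18, 7.13 and 7.45 in tails. No head came within the tail range, and the tails lay close together. The means were 8.90 ± 0.43 and 7.21 ± 0.16 (SD, n = 4 each), a 3.22-fold difference (log2 difference 1.69, SE 0.27; limma adjusted p = 0.00397). The second fzd8.S probe set read 10.74, 10.23, 10.22 and 10.29 in heads and 10.13, 10.39, 10.55 and 10.68 in tails. It gave a difference of -0.07 with a 95% interval of -0.55 to 0.41 (limma adjusted p = 0.906), so probe sets under the same symbol did not give the same picture. The L copy of fzd8 had both means under the 20th percentile. The neural marker sum was higher in every head than in every tail, as it was for this probe set, and its part in the difference was not tested.

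The remaining Frizzled genes leaned in both directions without passing. The gene fzd7.L, a Wnt receptor active in gastrulation and neural crest, had 5 probe sets. In 1 of them both means were under the 20th percentile, and in another the tail mean was, so that heads were at least 1.78-fold above tails there. One more, also under the filter, gave 0.28. The 2 that were bright enough to test had differences of 1.23 (SE 0.48, limma adjusted p = 0.202) and 0.98 (SE 0.41, limma adjusted p = 0.232). In the one with the difference of 1.23 the heads read 9.35, 9.71, 9.39 and 10.68 and the tails 7.19, 8.84, 8.40 and 9.77. Only the tail pool reached into the head range. The gene fzd3.L, known for neural crest and eye formation in Xenopus, had means of 9.26 ± 0.46 and 8.30 ± 0.59 in heads and tails (SD, n = 4 each; difference 0.96, limma adjusted p = 0.146). In the opposite direction, fzd10.S, a receptor of the dorsal neural tube, read 7.94, 7.56, 8.11 and 8.55 in heads and 8.28, 9.70, 9.58 and 9.70 in tails. Only tail replicate 1 lay among the heads (difference -1.27, SE 0.35; limma adjusted p = 0.0650). Without tail replicate 1 the difference was -1.62 (limma adjusted p = 0.00572), and with the arrays centred on their medians it was -1.34 (limma adjusted p = 0.0318). A dimmer fzd10.S probe set and the L copy, had both means under the 20th percentile, so no fold is given.

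Also tested without passing were the receptors fzd2.S, lrp5.L and ror2.L. The gene fzd2.S had means of 9.30 ± 0.36 in the heads and 9.92 ± 0.48 in the tails (SD, n = 4 each; difference -0.62, limma adjusted p = 0.291). The co-receptor lrp5.L had a difference of -0.37 with a 95% interval of -0.99 to 0.25. The receptor tyrosine kinase ror2.L, which binds Wnt5a, had a difference of -0.33 with an interval of -0.95 to 0.30. Of the 20 receptor probe sets 11 were under the filter, among them fzd1.L, fzd4.S, fzd5.S and both probe sets of lrp6.L.

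**Figure D3:**
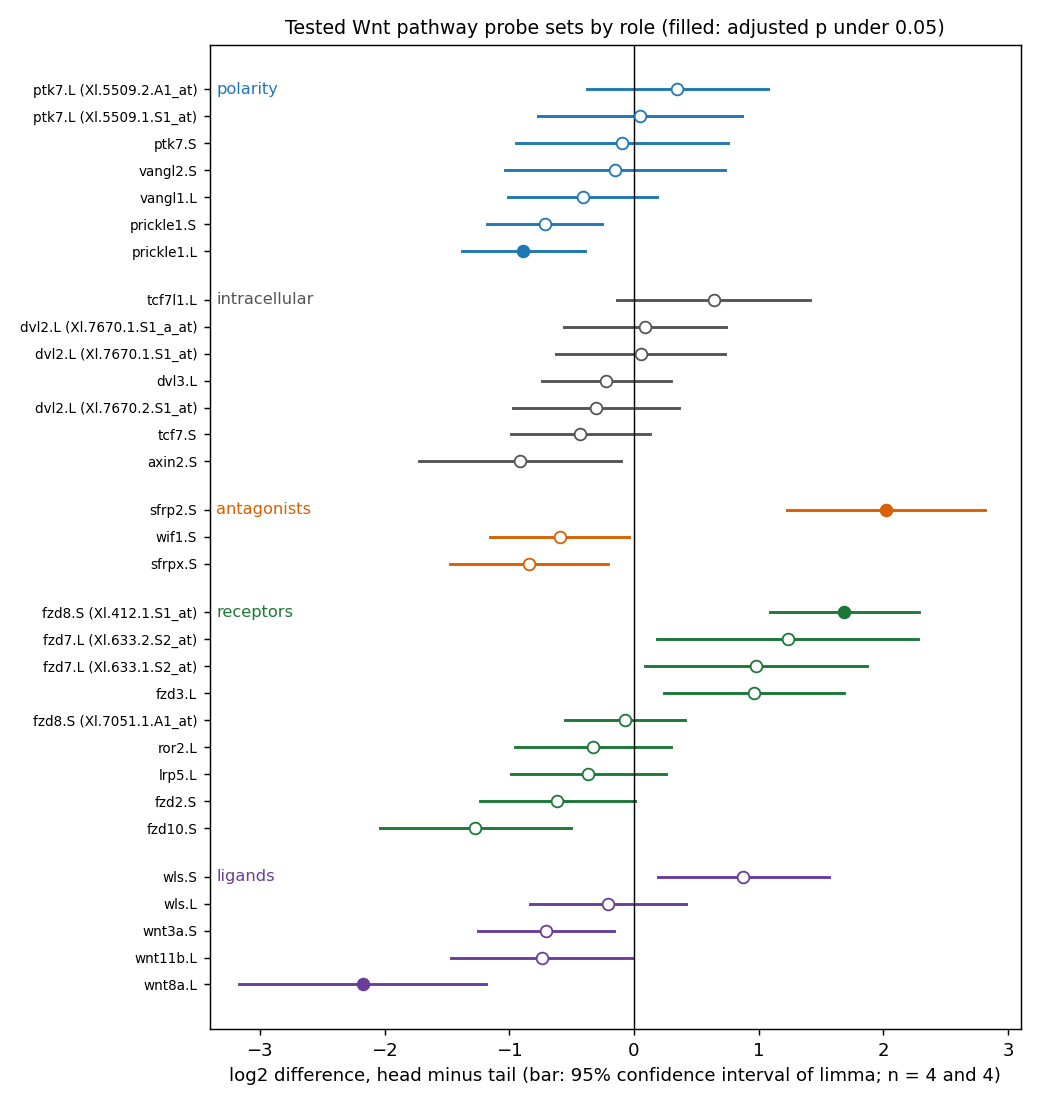
Log2 difference, head minus tail, of the 31 tested Wnt pathway probe sets by role; bars are the 95% confidence intervals of limma (n = 4 and 4) and filled points passed an adjusted p of 0.05. Filled points are wnt8a.L (-2.18), prickle1.L (-0.89), fzd8.S (1.69) and sfrp2.S (2.02).

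Among the antagonists, sfrp2.S, which encodes a secreted Frizzled-related protein that captures Wnt outside the cell, was higher in heads. It read 10.33, 11.70, 11.27 and 11.68 in heads and 8.35, 9.39, 9.37 and 9.78 in tails. All heads were above all tails, and replicate 1 was the lowest array in each tissue. The means were 11.25 ± 0.64 and 9.22 ± 0.61 (SD, n = 4 each), a 4.07-fold difference (log2 difference 2.02, SE 0.36; limma adjusted p = 0.00763). The neural marker sum was also lowest in replicate 1 of each tissue (13.42 and 11.93). In heads this order was that of sox11.S (12.46 in replicate 1, other heads 13.22 to 14.01). In sox2.L, ncam1.S and tubb2b.S head replicate 1 was not the lowest head. Tail replicate 1 was the highest tail in tubb2b.S (11.44, other tails 10.85 to 10.94) and the lowest in sox2.L, sox11.S and ncam1.S. The part of neural tissue in the sfrp2.S values was not tested. This gene passed under all 18 alternatives run, with differences of 1.73 to 2.33.

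No other antagonist passed. The gene wif1.S, whose product binds Wnt proteins directly, had means of 9.27 ± 0.29 in the heads and 9.87 ± 0.40 in the tails (SD, n = 4 each; difference -0.60, limma adjusted p = 0.253). The sfrp2 relative sfrpx.S had means of 8.49 ± 0.38 and 9.33 ± 0.46 (SD, n = 4 each; difference -0.84, limma adjusted p = 0.146). The other 10 antagonist probe sets were under the filter. None of these 10 passed when all probe sets were tested without a filter in limma, while 3 had an unadjusted p under 0.05. The background over all probe sets, bright ones included, was 14.3%, and that of dim probe sets alone was not taken. These 3 were dkk1.S and the brighter frzb2.L probe set, whose means were higher in heads, and kremen2.S, with every tail above every head. The head inducer dkk1.S, which blocks the co-receptors lrp5 and lrp6, read 8.76, 8.07, 8.23 and 7.42 in heads and 7.41, 7.11, 7.73 and 5.42 in tails. The head pool fell below 1 tail, and the tail pool was the lowest of all arrays (2.30-fold; limma adjusted p without a filter = 0.288). Both probe sets of frzb2.L, another secreted Frizzled-related gene, were higher in every head than in every tail. The brighter read 8.40, 8.31, 7.59 and 7.72 in heads and 6.40, 7.25, 6.27 and 6.37 in tails (difference 1.43; limma adjusted p without a filter = 0.0595), and in the dimmer the tail mean lay under the 20th percentile. The L and S copies of frzb gave -0.67 and 0.16, with head replicate 1 highest of the heads in both. For the Dkk receptor kremen2.S all heads and 2 of the tails were under the 20th percentile, and so were both means, so no fold is given.

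None of the 7 tested intracellular probe sets passed in limma (background 4.62%), and 1 did at an unadjusted p of 0.05 (14.3%, background 17.5%). That probe set was axin2.S, a scaffold of the beta-catenin destruction complex that is itself a feedback target of Wnt signalling. It read 8.94, 9.32, 8.94 and 9.61 in heads and 9.53, 11.07, 9.30 and 10.56 in tails. Tail replicates 2 and 4 lay above all heads, and the other 2 tails fell inside the head range (difference -0.91, SE 0.37; limma adjusted p = 0.220). The L copy, under the filter, had tails of 6.89 to 7.20 and heads of 3.51 to 6.94, so that the tail mean was at least 1.35-fold above that of the heads, which lay under the 20th percentile (limma adjusted p without a filter = 0.307). The Dishevelled genes relay the signal from Frizzled. Their 3 probe sets of dvl2.L gave differences of 0.09, 0.05 and -0.30, and dvl3.L gave -0.22 with a 95% interval of -0.74 to 0.30. Among the Tcf factors, the repressor-type tcf7l1.L gave 0.64 (interval -0.13 to 1.41) and its S copy, under the filter, was at least 1.22-fold higher in the mean of heads than in that of tails. The gene tcf7.S gave -0.43 (interval -0.99 to 0.13). Under the filter, 1 tcf7l2.L probe set gave 1.09 (limma adjusted p without a filter = 0.211), and another had both means under the 20th percentile. The 9 probe sets under the filter included apc.L, axin1.L, gsk3a.L and gsk3b.L of the destruction complex, and the lef1 probe set (means 5.97 ± 1.18 in the heads and 6.87 ± 0.32 in the tails; SD, n = 4 each).

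Of the polarity genes, prickle1.L was higher in tails, while prickle1.S did not pass. Prickle is a cytoplasmic protein of the planar polarity complex and is needed in Xenopus for convergent extension, the narrowing and lengthening of the axis. The L copy read 8.60, 8.18, 8.51 and 8.09 in heads and 9.22, 9.04, 9.44 and 9.23 in tails. The groups did not overlap, and the tails were 1.85-fold higher (log2 difference -0.89, SE 0.23; limma adjusted p = 0.0459). The S copy read 11.52, 10.93, 11.35 and 11.02 in heads and 11.88, 11.68, 11.94 and 12.18 in tails. Here too every tail was above every head (difference -0.72, SE 0.21; limma adjusted p = 0.0900). The call for the L copy was close to the threshold. Its adjusted p stayed under 0.05 without head replicate 1 (0.0378) and ran from 0.0608 to 0.165 without any 1 of the other 7 arrays. It was 0.0811 with no filter and 0.215 in the single-embryo arrays, and its log2 difference ran from -0.99 to -0.73 over 17 alternatives.

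The other tested polarity genes did not pass. The membrane proteins Vangl1 and Vangl2 oppose Frizzled across the cell in planar polarity, and vangl1.L gave -0.41 (interval -1.01 to 0.19) and vangl2.S gave -0.15 (interval -1.03 to 0.73). The receptor-like ptk7 had 3 tested probe sets with differences of 0.35, 0.05 and -0.10. The cadherin-type celsr2.L and vangl2.L were under the filter with both means under the 20th percentile. Over all roles 5 of the 31 tested members had no overlap between heads and tails (16.1%, background 11.7%). These were the 4 that passed and prickle1.S, so 2 had heads above tails (background 5.95%) and 3 had tails above heads (background 5.71%).

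**Figure D4:**
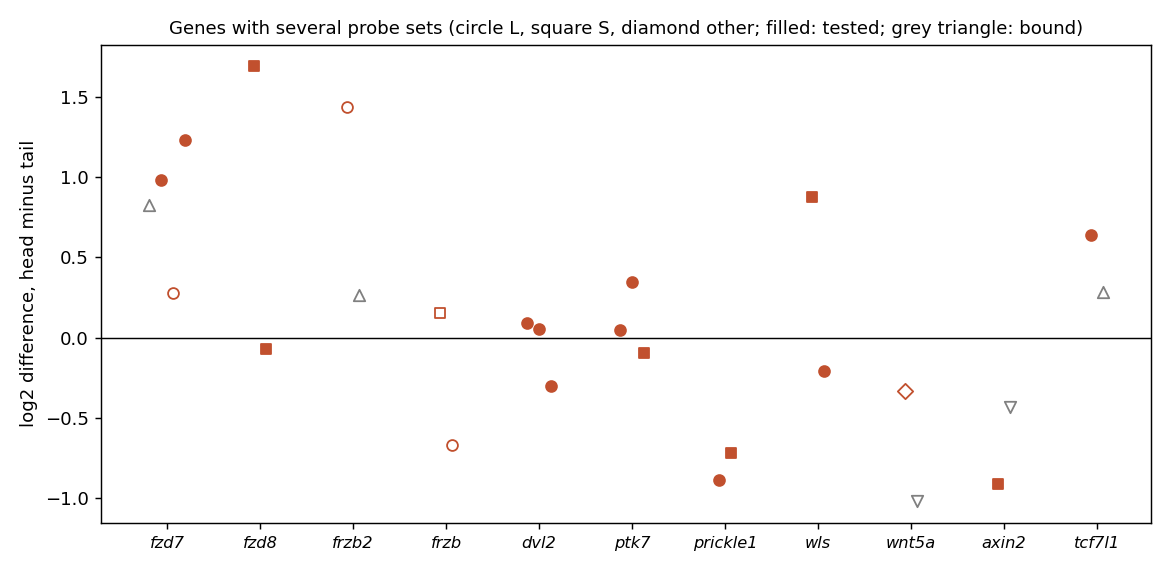
Log2 difference, head minus tail, of 26 probe sets for 11 of the Wnt pathway genes with more than 1 probe set. Circles are L copies, squares S copies, the diamond wnt5a-a, and filled symbols were tested. The other such genes, fzd10, tcf7l2, wnt2b, wnt6, lrp6, vangl2 and celsr2, are left out. The 5 grey triangles are lower bounds, for probe sets with 1 mean under the 20th percentile, and 2 probe sets with both means under it are not drawn. The 4 drawn fzd7 probe sets lie above 0, both prickle1 copies lie below 0, and those of fzd8 and wls lie far apart.

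Whether L and S copies differed from each other was tested on the difference between the copies within each array. Of 626 genes with both copies tested, 9 passed (1.44%), and 3 of the 626 were Wnt pathway genes. None of the 3 passed in limma, and 1 did at an unadjusted p of 0.05 (background 12.3%). For wls the L copy was lower relative to the S copy in heads than in tails by 1.09 log2 units (95% interval -1.74 to -0.43; limma adjusted p = 0.103). For prickle1 the copies differed by -0.17 (interval -0.62 to 0.28) and for ptk7 by 0.45 (interval -0.40 to 1.29). Probe sets of 1 copy can bind the other, which limits this comparison.

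Pathway genes outside the symbol rule were then counted. A list of 77 such genes, among them beta-catenin, casein kinases, Groucho co-repressors, Dapper, and small GTPases of the polarity branch, had 41 genes on the array and 53 tested probe sets. None of the 53 passed in limma, against a background of 4.62%, and with array weights 1 passed. At an unadjusted p of 0.05, 3 of the 53 passed (5.66%, background 17.5%). Differences ran from -0.43 to 0.71 log2 units with a median of 0.04. Beta-catenin, named for its role, gave -0.32 for ctnnb1.S, with means of 11.03 ± 0.22 in the heads and 11.35 ± 0.46 in the tails (SD, n = 4 each). The tested ctnnb1.L probe set gave -0.15. The 3 with the lower p-values, named after their values were seen, were both copies of tle5, a short Groucho relative, and pygo2.S, a nuclear partner of beta-catenin. Both copies of tle5 were higher in every head than in every tail, with differences of 0.71 for the S copy and 0.57 for the L copy (limma adjusted p = 0.116 and 0.158).

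A second list held genes known in vertebrate embryos to be activated or repressed by Wnt signalling. It was drawn up with earlier results of these arrays known and includes axis markers such as tbxt and six3, so its counts are no independent support. Of 45 tested probe sets, 9 were higher in tails and 5 higher in heads (31.1%, against 4.62%). The filter left out 29 probe sets of this list. When all 74 were tested without it, 15 were higher in tails and 7 higher in heads (29.7%, against 2.93%). The 6 added on the tail side were low in heads, so their folds are lower bounds. Tails were at least 10.1-fold higher for the presomitic mesoderm gene msgn1.L, at least 9.23-fold and 5.91-fold for 2 probe sets of the posterior homeobox gene cdx1.S, and at least 2.28-fold for its relative cdx4.L. They were at least 5.56-fold higher for mespa.L and 5.69-fold for ventx2.2.L. Added on the head side were 1 probe set of otx2.L and that of fst.L, with heads at least 4.59-fold and 4.68-fold higher. Another otx2.L probe set gave at least 1.06-fold and did not pass (limma adjusted p without a filter = 0.103). Arrays of otx2.S overlapped between the tissues (limma adjusted p without a filter = 0.797). The median difference of the 45 was 0.13 log2 units. Among these 45, the largest tail-side differences were those of the segmentation genes mespa.S (6.59-fold) and ripply2.2.S (4.33-fold), the ventral homeobox gene ventx2.1.L (4.13-fold) and the paraxial mesoderm gene tbx6.L (3.96-fold). The S copy of ventx2.1 was 3.05-fold higher in tails. On the head side were the keratin gene krt19.S (5.26-fold), both copies of the growth regulator mycn (5.01-fold for L and 3.13-fold for S) and the forebrain gene six3.L (3.61-fold). The L copy of krt19 had a difference of 0.33 (limma adjusted p = 0.589), against 2.39 for the S copy. Both six3.S probe sets were under the filter and overlapped between the tissues (limma adjusted p without a filter = 0.844 and 0.739). Targets named often in other tissues showed smaller differences: ccnd1.L gave 0.52 and ccnd1.S 0.15, znrf3.S gave 0.25, and 5 probe sets of myc gave 0.09 to 0.21. The neural marker sum given above differed between the tissues too, and its part in these counts was not tested.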

How the data were processed

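Linear intensity values were deposited, and the submitters' processing notes name MAS5 without a version. The 2% trimmed mean was 1000 on every array. Per the labels' protocols, biotin-labelled cRNA was made with 2 rounds of amplification. Of 15611 probe sets, 120 controls were left out. Symbols came from the array annotation, with several symbols at 195 probe sets and none at 5992.

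Values were turned into log2 (the lowest was 1.26), and probe sets with a mean under the 40th percentile, 7.86, were left out. The test of head against tail was limma 3.58.1 (R 4.3.3; lmFit, eBayes with intensity trend), two-sided, over all 8 arrays and with no covariate, and p-values were adjusted by Benjamini-Hochberg over 9295 probe sets. A fold is 2 raised to the log2 difference. Where the lower mean was below the table's 20th percentile (93.3 signal units, log2 6.54), values were raised to it first and the fold is a lower bound. That level is not a measured background, since no detection calls were used here. For copies, the brightest probe set of each copy was taken and the log2 L minus S fitted the same way without trend. Marker sums are log2 of the summed signals of each gene's brightest probe set.

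Named were members that passed, did not overlap or were among the 2 brightest of a role, with all probe sets of their genes. Other members are given to account for them, and up to 8 passing genes of each further list were named by size. The members and lists were chosen with earlier results of these data known. The alternatives were 2 other filters, quantile normalization, median centring, 2 treatments of low values, single embryos only, leaving out arrays, a replicate block and array weights. Steps were tested on simulated data. No sequences were used here.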

Additional observations from a re-analysis of the deposited data

Results flagged for a closer look

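Of 42 sets of 4 arrays examined among the named Wnt pathway probe sets, 1 held an array far from the others, and chance flags about 1 in 20. In the second fzd8.S probe set (the one that did not pass), head replicate 1 read 10.74, whereas the other 3 heads lay between 10.22 and 10.29. This probe set passed in 0 of 18 alternatives (limma adjusted p 0.43 to 0.99), with differences of -0.30 to 0.04.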

How the results depend on the processing

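The antagonist sfrp2.S kept its direction and its side of the threshold in 18 of 18 alternatives and the first fzd8.S probe set in 17 of 17, whereas wnt8a.L passed in 14 of 18, prickle1.L in 8 of 17 and wnt5a.S (fitted without a filter) in 15 of 16. All 5 kept their direction throughout. The main test called 429 probe sets, 2 members higher in heads, 2 members higher in tails and 9 copy pairs. With the filter at the 60th percentile these counts were 273, 1, 1 and 4. Single embryos alone gave 211 probe sets and 0 members higher in tails in limma (the members higher in heads were still 2, and 13 members had an unadjusted p under 0.05). Without head replicate 1 and tail replicate 1 there were 683 probe sets, 4 members higher in tails and 14 copy pairs. Array weights gave 1223 probe sets, 4 members higher in heads, 6 higher in tails and 20 copy pairs. A pseudocount of the 20th percentile gave 17 copy pairs. Leaving out 1 array gave 208 to 501 probe sets, 2 to 3 members higher in heads, 0 to 2 higher in tails and 4 to 11 copy pairs, with 0 higher in tails without head replicate 3, tail replicate 2 or tail replicate 3. The cause of these shifts was not tested. Single-embryo and leave-out settings hold fewer arrays, and their counts lay on either side of 429. Single embryos alone gave 211, while 479 passed without head replicate 1, 501 without tail replicate 1 and 683 without both. The labels do not say that equal numbers are 1 embryo, so the numbers were not taken as pairs in the main test. Same-numbered heads and tails correlated in their deviations at 0.23, 0.03, 0.02 and 0.60, and those with unlike numbers at -0.54 to 0.18. In 2 of 4 heads the best correlation was with their own number. Whether equal numbers share an embryo was not tested. With the replicate block 635 probe sets and 4 members higher in heads passed (fzd3.L and fzd7.L were added), and fzd10.S was added in tails, where 3 passed. Dim MAS5 signals vary widely on a log scale, so nothing can be said for most of the 47 members under the filter.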

Other observations

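The pools stood above the single embryos for the tested Wnt pathway probe sets. Their median deviation from the tissue mean was 0.39 log2 units in the head pool and 0.29 in the tail pool, against -0.15, -0.08 and -0.00 in the single heads and -0.53, 0.17 and 0.02 in the single tails. The same median over all tested probe sets was not taken, so a shift of whole arrays cannot be told apart. Array medians were 390 in the head pool (single heads 362 to 373) and 379 in the tail pool (single tails 327 to 378). The deviations of the 2 pools over all tested probe sets correlated at 0.60, across genes that are not independent replicates. With 1 pool per tissue no test was made, and pools and single embryos cannot be told apart from differences between these arrays.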
